A study of Mus musculus with 2 samples.

Results

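The laminin and integrin genes of the mouse were described in total RNA from the stomachs of newborn pups: 37 protein-coding genes of 21474 measured, and of 43346 Ensembl genes in all. They were taken by symbol: Lama, Lamb or Lamc followed by a number, Itgb followed by a number only, and every symbol that starts with Itga. This gave 11 laminin genes and 26 integrin genes, of which 18 encode α chains and 8 encode β chains. This rule uses no measured value, but the members were chosen with earlier results of these data known. The stomachs came from 2 pups of strain B6NCrl at postnatal day 0, both born to the same dam, with sex not collected. No allele, treatment or second condition is given in the labels, and each pup supplied 1 whole stomach and 1 library, made from 10 ng of RNA longer than 200 nucleotides. The labels name separate pups but give both samples the same donor label, and it is from those descriptions that the spread is taken as one between animals. The 2 libraries form 1 group, so the data hold levels and the spread between pups, and no contrast between conditions. The tables held 51524479 expected counts (reads per gene as the authors estimated them, with shared reads divided) for pup 1 and 49983574 for pup 2.

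Laminins are secreted trimers of 1 α, 1 β and 1 γ chain that polymerise into the network of the basement membrane, the sheet of matrix beneath epithelia and around muscle fibres, vessels and nerves. A trimer is named by its chains in that order, so that laminin 511 holds α5, β1 and γ1. Integrins are the cell surface receptors that grip this sheet and other matrix proteins. Each is a pair of 1 α and 1 β chain that links its ligand outside the cell to the cytoskeleton inside it. The newborn mouse stomach has a squamous forestomach and a columnar glandular part, each on a basement membrane, over layers of smooth muscle.

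Of the 37 genes, 27 were detected, meaning that each pup had a TPM of 1 or more. TPM divides reads by transcript length and scales them to a fixed library total, so levels of different genes can be set side by side. Over all protein-coding genes 61.2% were detected by the same rule. The 27 were 9 laminin genes, 11 integrin α genes and 7 integrin β genes. Their median TPM was 11.7, beside 13.1 over all detected protein-coding genes. The summed TPM of all 37 was 641.0 in pup 1 and 626.0 in pup 2. Itgb1, the β1 chain of 12 of the 24 integrin pairs listed further down, held 32.9% and 30.9% of that sum. Itgb1 lies at chr8:128685654-128733200, Itgav at chr2:83724397-83806916 and Itga6 at chr2:71745616-71858416 on mm10, all on the plus strand. Lama5 lies at chr2:180176373-180225859 on the minus strand. In a whole organ, fewer cells of a type and less RNA per cell cannot be told apart.

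**Figure D1:**
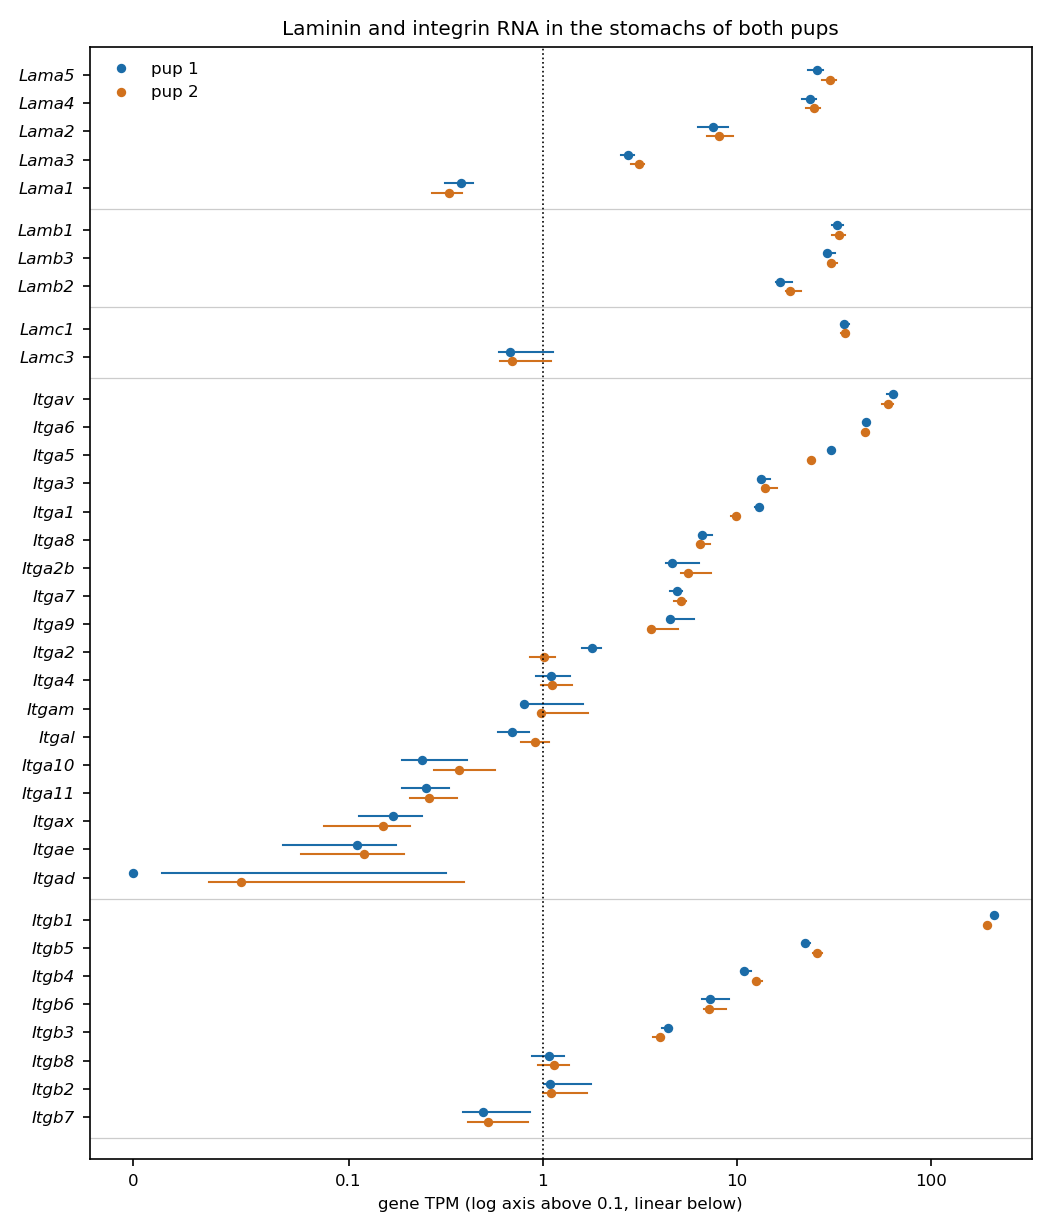
Gene TPM (x axis, logarithmic above 0.1 and linear below) of 36 laminin and integrin genes (y axis), grouped by family, in pup 1 (blue) and pup 2 (orange). Horizontal bars are the credibility intervals that the authors deposited with each value, and the dotted line is a TPM of 1. Itgb1 lies alone near 200 TPM, and for most genes the pups lie close together.

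Among the laminin α chains, which carry the integrin-binding end of the trimer, Lama5 and Lama4 were the highest by gene TPM. Lama5, the widespread epithelial and vascular α chain, had 25.65 TPM in pup 1 and 30.13 TPM in pup 2 (27.9 ± 3.17, SD, n = 2). Lama4, the chain of endothelial and muscle basement membranes, had 23.71 and 24.77 (24.2 ± 0.750, SD, n = 2). Both pups' values of Lama5 lay above both of Lama4, but this order did not hold on a second reading given further down. Lama2, the chain of muscle and peripheral nerve, had 7.53 and 8.07. Lama3, the α chain of laminin 332, had 2.76 and 3.12, and Lama1, typical of early embryonic basement membranes, 0.38 and 0.33. Lama1 was thus below detection in both pups. No value of one laminin α gene fell within the range of the next.

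The β chains were closer together. Lamb1, the most widespread β chain, had a TPM of 32.74 and 33.39 (33.1 ± 0.460, SD, n = 2), and Lamb3, which occurs in laminin 332, had 28.88 and 30.51 (29.7 ± 1.15, SD, n = 2). Lamb2, found in muscle, kidney and vessel basement membranes, had 16.64 and 18.65 (17.6 ± 1.42, SD, n = 2). Of the γ chains, Lamc1, the common partner, had 35.70 and 35.88 (35.8 ± 0.127, SD, n = 2). Lamc3 had 0.68 and 0.69, below detection in both pups. Within laminin 332, the TPM of Lamb3 was 10.1 ± 0.484 times that of Lama3 (SD, n = 2). This ratio hardly moved on the other readings, where Lamb3 stood at 10.1 and 9.57 times Lama3.

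The integrin α chains set which ligand a pair binds. The classes that follow are the usual ones by ligand. The laminin-binding chains were led by Itga6, with 46.02 TPM in pup 1 and 45.68 TPM in pup 2 (45.9 ± 0.240, SD, n = 2). Itga3, which pairs with β1 and binds laminins 332 and 511, had 13.25 and 13.99. Itga7, the laminin receptor of muscle, had 4.92 and 5.16. Among the chains that bind the RGD motif of fibronectin, vitronectin and latent TGF-β, Itgav had 63.75 and 59.86 (61.8 ± 2.75, SD, n = 2), the highest gene TPM of any α gene. Itga5, the fibronectin receptor chain, had 30.59 and 24.16 (27.4 ± 4.55, SD, n = 2). Itga8, which binds nephronectin and is found on smooth muscle and mesenchyme, had 6.61 and 6.47. Itga2b, the α chain of the platelet fibrinogen receptor, had 4.64 and 5.59.

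Of the collagen-binding chains, Itga1 had a TPM of 13.00 and 9.87 (11.4 ± 2.21, SD, n = 2), higher in pup 1. Itga2, which is typical of epithelia and platelets, had 1.80 and 1.02, again higher in pup 1. Itga10 and Itga11, known from cartilage and from fibroblasts, were below detection at 0.24 and 0.37 and at 0.25 and 0.26. Itga9, a receptor for tenascin and osteopontin, had 4.5 and 3.59, and Itga4, the fibronectin and VCAM1 receptor chain, had 1.10 and 1.11. None of the 5 α chains of leukocytes was detected in both pups: the TPM of Itgam was 0.80 and 0.98, of Itgal 0.69 and 0.91, of Itgax 0.17 and 0.15, and of Itgae 0.11 and 0.12. By the deposited posterior mean TPM, Itgam had 1.19 and 1.31 and would count as detected, and its TPM of 0.80 in pup 1 lay below its own interval of 0.824 to 1.61. Itgad had no reads in pup 1 and 2.10 expected counts in pup 2. A count of 0 in pup 1 allows up to 3 counts, which is 0.0582 CPM (counts scaled to the library total), a limit for counting error only.

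By ligand class, the summed gene TPM was 64.2 and 64.8 for the 3 laminin-binding α genes, and 105.6 and 96.1 for the 4 RGD-binding ones. The 4 collagen-binding genes summed to 15.3 and 11.5, and the 5 leukocyte genes to 1.77 and 2.21. Neighbouring α genes whose pups overlapped, and which therefore have no order, were Itga2b and Itga7, Itga2 and Itga4, Itgam and Itgal, and Itga10 and Itga11.

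Of the β chains, Itgb1 stood apart. Its TPM was 211.1 in pup 1 and 193.3 in pup 2 (202 ± 12.6, SD, n = 2), at the 96.9th percentile of all protein-coding genes, and it made up 81.6% and 78.7% of the summed TPM of the 8 β genes. Itgb5, a partner of αv, had 22.50 and 25.76 (24.1 ± 2.31, SD, n = 2). Itgb4, which pairs with α6 in hemidesmosomes, the rivets that hold basal epithelial cells to laminin 332, had 10.88 and 12.49 (11.7 ± 1.14, SD, n = 2). Itgb6, the epithelial partner of αv, had 7.25 and 7.19, and Itgb3, the partner of αv and αIIb, had 4.40 and 4.00. Itgb8, another partner of αv, had 1.07 and 1.14, and Itgb2, the β chain of leukocytes, had 1.09 and 1.10, so the ranges of these genes overlapped. Itgb7, the lymphocyte chain that pairs with α4 and αE, was below detection at 0.49 and 0.52.

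The gene TPM is a sum over all annotated transcripts of the gene, and for several members most of it came from short or incomplete ones. A full-length coding transcript was taken as one that the GENCODE M21 annotation types as protein-coding with both ends of its coding sequence complete. Of the 27 detected genes, 14 had at least 90% of their TPM in such transcripts and 8 had under 50%. Over all detected protein-coding genes 11.2% had under 50%. The medians were 95.2% for the 27 and 97.6% over all detected genes. The 8 were Lama5, Lama4, Lama2, Lamc1, Itgav, Itga6, Itga2b and Itgb8. In 7 of the 27, namely Itga1, Itga2, Itga5, Itga7, Itga9, Itgb3 and Lama3, all of the TPM lay in full-length coding transcripts in both pups.

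For Itgav the full-length coding transcripts held 11.3% of the gene TPM, 6.77 TPM in pup 1 and 7.23 in pup 2 (7.0 ± 0.325, SD, n = 2). Itgav-205, an incomplete coding transcript of 463 bases whose end is the 3′ end of the gene, had 53.11 and 50.67 TPM. It took 83.3% and 84.7% of the gene TPM with 28.3% and 26.5% of the gene's reads. For Lama5, Lama5-201, which is 11388 bases long, had 4.33 and 4.78 TPM. Its processed transcripts of 451, 478 and 734 bases, ending 795, 81 and 0 bases from the 3′ end of the gene, held nearly all the rest. Transcripts of Lama5 that were not full-length coding took 16.2% and 17.7% of the reads and 83.6 ± 0.719% (SD, n = 2) of the TPM.

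Short or incomplete transcripts also held much of the TPM of other members. Lama4-207, a retained-intron transcript of 511 bases, had 11.67 and 13.77 TPM, beside 11.32 and 9.89 for the full-length Lama4-201. Both values of the short transcript lay above both of the full-length one, by little in pup 1. Lama4-207 took 6.51% and 8.44% of the gene's reads. Lamc1-204, of 1447 bases at the 3′ end, had 19.09 and 22.20 TPM, beside 16.28 and 13.21 for the full-length Lamc1-201. For Lama2, the full-length Lama2-201 had 2.74 and 2.83 TPM and the retained-intron Lama2-206, of 643 bases, had 2.71 and 3.29. Itga2b-201, the full-length platelet chain, had 0.60 and 0.71 TPM of a gene TPM of 4.64 and 5.59. For Lamb1, a transcript of 2318 bases with 6.90 and 7.68 TPM has no entry in GENCODE M21 and was not counted as full length.

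**Figure D2:**
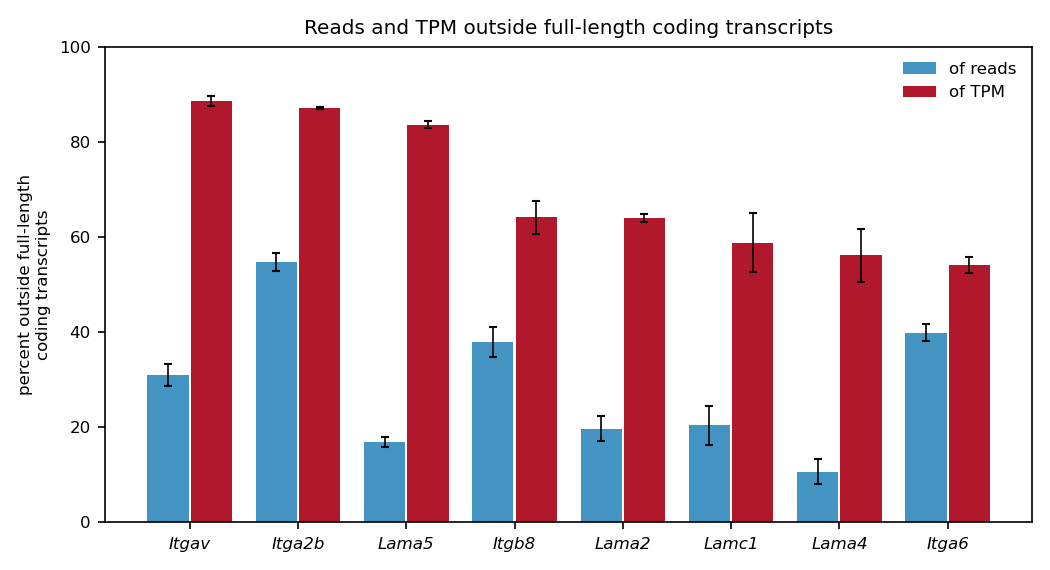
Share of reads (blue) and of TPM (red) outside full-length coding transcripts (y axis, percent) for the 8 detected genes with under 50% of TPM in full-length coding transcripts (x axis). Bars are means of the pups and error bars are SD (n = 2). In each gene the share of TPM is higher than the share of reads, with Lama5 at 83.6% of TPM and 17% of reads.

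To see what order the reads alone would give, each gene's reads were also all placed on its main full-length coding transcript, the one with the most reads, and turned into TPM with the library's own constant. With the TPM of full-length transcripts alone, this makes 3 readings of the same libraries. On the other readings Lama4 was the highest laminin α gene, at 10.6 ± 1.01 on full-length transcripts and 11.9 with all reads placed there. Lama5 followed at 4.56 ± 0.318 and 5.49 (SD, n = 2 for both). Lama3 and Lama2 overlapped at 2.94 and 2.81 on full-length transcripts. The β order turned too, with Lamb3 at 29.7 and 29.7 above Lamb1 at 22.6 and 25.7. Lamc1 stood at 14.7 ± 2.17 on full-length transcripts (SD, n = 2) and at 18.5 with all reads placed.

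Among integrin α genes, Itgav dropped from first by gene TPM to the fifth place, with 7.0 on full-length transcripts and 10.3 with all reads placed. In the latter reading its range overlapped that of Itga1, at 11.4. Itga5 led on full-length transcripts at 27.4, with Itga6 next at 21.1. With all reads placed, Itga6 led at 34.7. The RGD-binding class summed to 41.3 ± 4.08 TPM on full-length transcripts, with values of 44.1 and 38.4, and the laminin-binding class to 39.5 ± 0.396, with values of 39.8 and 39.2, so these overlapped. With all reads placed, the laminin-binding class was the higher, at 53.0 and 53.2 against 48.4 and 42.4. The order of the first 5 β genes (Itgb1, Itgb5, Itgb4, Itgb6 and Itgb3) was the same on all 3 readings, and Itgb1 held 80.2%, 81.4% and 81.0% of the β total.

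**Figure D3:**
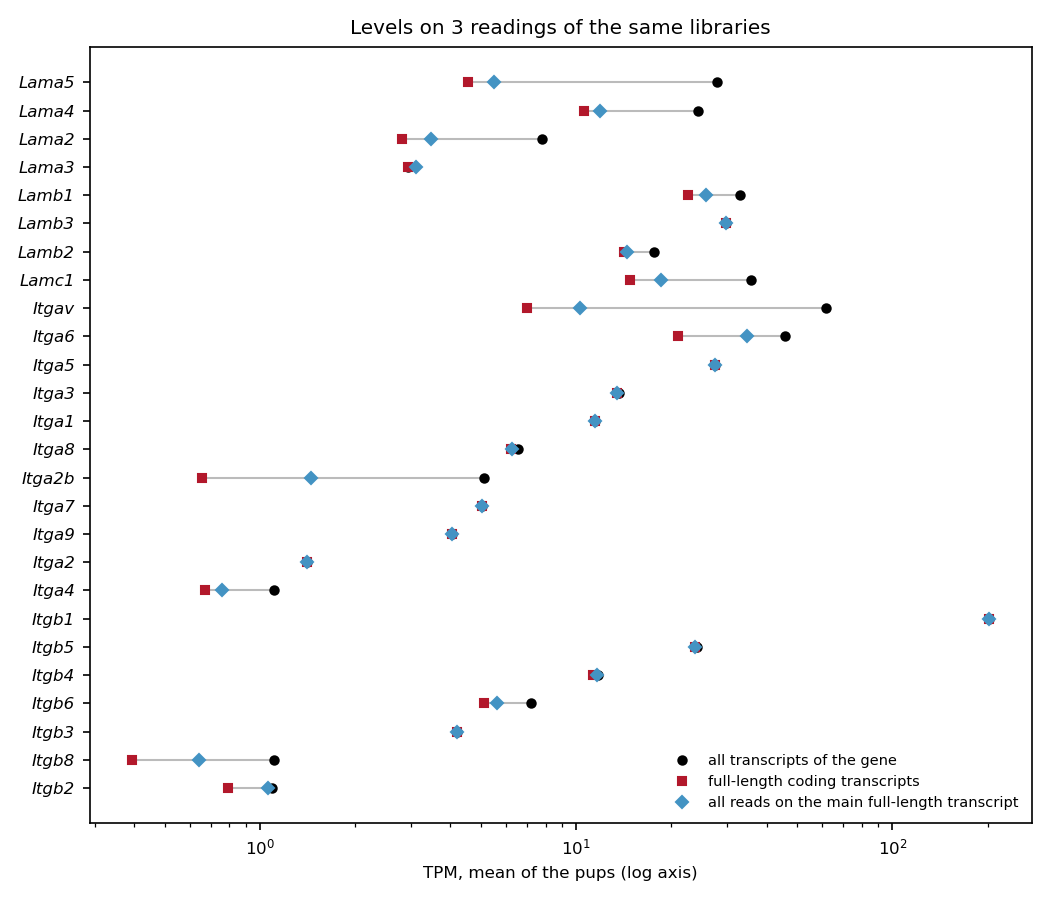
TPM as the mean of both pups (x axis, logarithmic) for 26 detected genes (y axis): all transcripts of the gene (black circles), full-length coding transcripts (red squares), and all reads placed on the main full-length transcript (blue diamonds). The symbols coincide for genes such as Itgb1 and Itga5, and lie far apart for Itgav (61.8, 7.0 and 10.3) and Lama5 (27.9, 4.56 and 5.49).

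Itga6 and Itga3 each have a pair of alternative last coding exons, A and B, which give the chain different cytoplasmic tails and so a different face toward the proteins inside the cell. The coding part of these exons is shown because the data divide the genes by it. Positions are on mm10 with GENCODE M21 transcripts, and the sequences are read 5′ to 3′ on the strand of the gene with the stop codon in capitals. Itga6 A lies at chr2:71853534-71853641 and Itga6 B at chr2:71855854-71856015, both on the plus strand. Itga3 A lies at chr11:95046480-95046590 and Itga3 B at chr11:95045608-95045763, both on the minus strand.
Itga6 A: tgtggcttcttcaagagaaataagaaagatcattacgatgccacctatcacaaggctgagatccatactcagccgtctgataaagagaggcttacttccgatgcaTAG
Itga6 B: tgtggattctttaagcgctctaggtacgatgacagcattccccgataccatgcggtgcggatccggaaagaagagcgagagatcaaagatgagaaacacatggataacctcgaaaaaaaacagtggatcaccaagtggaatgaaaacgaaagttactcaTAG
Itga3 A: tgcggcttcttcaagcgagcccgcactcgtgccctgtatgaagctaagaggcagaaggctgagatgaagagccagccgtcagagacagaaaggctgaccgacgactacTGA
Itga3 B: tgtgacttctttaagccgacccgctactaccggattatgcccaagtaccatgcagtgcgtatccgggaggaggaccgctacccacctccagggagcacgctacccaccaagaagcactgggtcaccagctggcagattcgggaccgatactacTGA

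Before the stop codon the exons hold 105 bases for Itga6 A, 159 for Itga6 B, 108 for Itga3 A and 153 for Itga3 B. The B exons of the genes were thus longer than the A exons. Aligned end to end, the A exons of Itga6 and Itga3 shared 65 identical bases, with 40 mismatches and 3 gap bases. The B exons shared 92, with 61 mismatches and 6 gap bases. Within Itga6 the A and B exons shared 73 bases, with 32 mismatches and 54 gap bases, and within Itga3 78, with 28 and 49. The crossed pairs shared 68 bases (Itga6 A and Itga3 B) and 71 (Itga6 B and Itga3 A), with 48 and 51 gap bases. Of the aligned bases without gaps, 61.9% were identical for A with A and 60.1% for B with B. The crossed pairs had 64.8% and 65.7%, so exons of the same form were not the more alike by this measure.

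The transcripts of Itga3 with either coding end were mostly of the A form by TPM. Transcripts whose coding sequence ends in the A exon had 12.64 and 13.63 TPM. The B transcript had 0.56 TPM in pup 1 and was listed at 0.00 in pup 2. The A form therefore took 95.8% of the coding ends of Itga3 in pup 1. In pup 2 the B value of 0.00 lay outside its own deposited interval of 0.126 to 2.62 TPM, and no share is given there. For Itga6 the answer depended on a non-coding transcript. Of the full-length coding transcripts, the A form, Itga6-201, had 14.29 and 15.07 TPM and the B form, Itga6-202, had 7.38 and 5.37, so that A took 65.9% and 73.7%. Another transcript, Itga6-203, had 19.25 and 20.77 TPM, more than either form. It has 3 exons and no coding sequence, and reads into the B exon and not the A exon. It runs on 1645 bases past the end of Itga6-202 and 1658 past that of Itga6-201. Transcripts that hold the A exon were also set against those that read into the B exon without it. The B group then had 26.6 and 26.1 TPM and A took 36.1% and 37.8%. This grouping counts Itga6-203 with B, though reads past the ends of both coding transcripts cannot tell A from B. The A share was thus above 50% among coding transcripts, and below it only with Itga6-203 counted. The latter value is not a share of α6A against α6B.

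Other members had 1 dominant form. Lama3-202, the shorter form with 5551 bases, held 92.8% and 94.5% of Lama3 TPM. Lamb3-201 held 99.9% and 96.8% of Lamb3 and Itgb5-202 92.0% and 89.9% of Itgb5. Itgb4 was more divided, with Itgb4-202 at 72.7% and 76.6% and Itgb4-201 at 19.3% and 15.7%. Over the 16 members with 2 or more transcripts and a gene TPM of 5 or more in each pup, the main transcript held a median of 77.5% of the TPM. The main transcript was the same in both pups in 14 of the 16, and was a full-length coding one in both pups in 10.

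Chains were then paired into the complexes that textbooks list, 14 laminin trimers and 24 integrin pairs. RNA of a whole organ shows which chains were present, not which met in 1 cell. All 3 chains were detected for 9 of the 14 trimers. The 5 others lacked Lama1 (111 and 121) or Lamc3 (213, 423 and 523). For laminin 511, the common epithelial trimer, the lowest chain was Lama5, at 27.9 gene TPM and 4.56 on full-length transcripts. For laminin 411, known from vessels, the lowest was Lama4, at 24.2 and 10.6. For laminin 211, that of muscle, the lowest was Lama2, at 7.80 and 2.81. In each of these 3 trimers the α chain was the lowest on all 3 readings. For laminins 421 and 521 the lowest chain was Lamb2 by gene TPM (17.6) and the α chain on the other readings.

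Both chains were detected for 16 of the 24 integrin pairs. The 8 others were the 4 β2 and both β7 pairs, α10β1 and α11β1. In all 12 β1 pairs the α chain was the lower one. The summed gene TPM of the 12 α partners of β1 was 186.0 in pup 1 and 171.5 in pup 2, and its ratio to Itgb1 was 0.884 ± 0.00435. On full-length transcripts that ratio was 0.487 ± 0.00868, and with all reads placed 0.571 ± 0.00142 (SD, n = 2 for each). On each reading Itgb1 was above the sum of the α genes that can pair with it, some of which also pair with other β chains. For α6β4 the lowest chain was Itgb4, and Itga6 stood at 3.94 ± 0.405 times Itgb4 by gene TPM, 1.88 ± 0.279 times on full-length transcripts and 2.99 ± 0.347 times with all reads placed.

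The αv pairs were the most dependent on the reading. Gene TPM put Itgav above the sum of its partners β3, β5, β6 and β8, whose total was 0.594 ± 0.0593 of Itgav. On full-length transcripts this total was 4.77 ± 0.0471 times Itgav, and with all reads placed 3.31 ± 0.144 times (SD, n = 2 for each). For αvβ5 the lower chain was Itgb5 by gene TPM and Itgav on the other readings. For αvβ3 it was Itgb3, and for αvβ6 Itgb6, on each reading. For the platelet receptor αIIbβ3 the lower chain was Itgb3 by gene TPM, at 4.2, and Itga2b on the others, at 0.655 and 1.45. Of the detected genes, 4 fell below 1 TPM in a pup on full-length transcripts, namely Itga2b, Itga4, Itgb8 and Itgb2. Detected pairs were then 13 of 24, and detected trimers still 9 of 14.

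**Figure D4:**
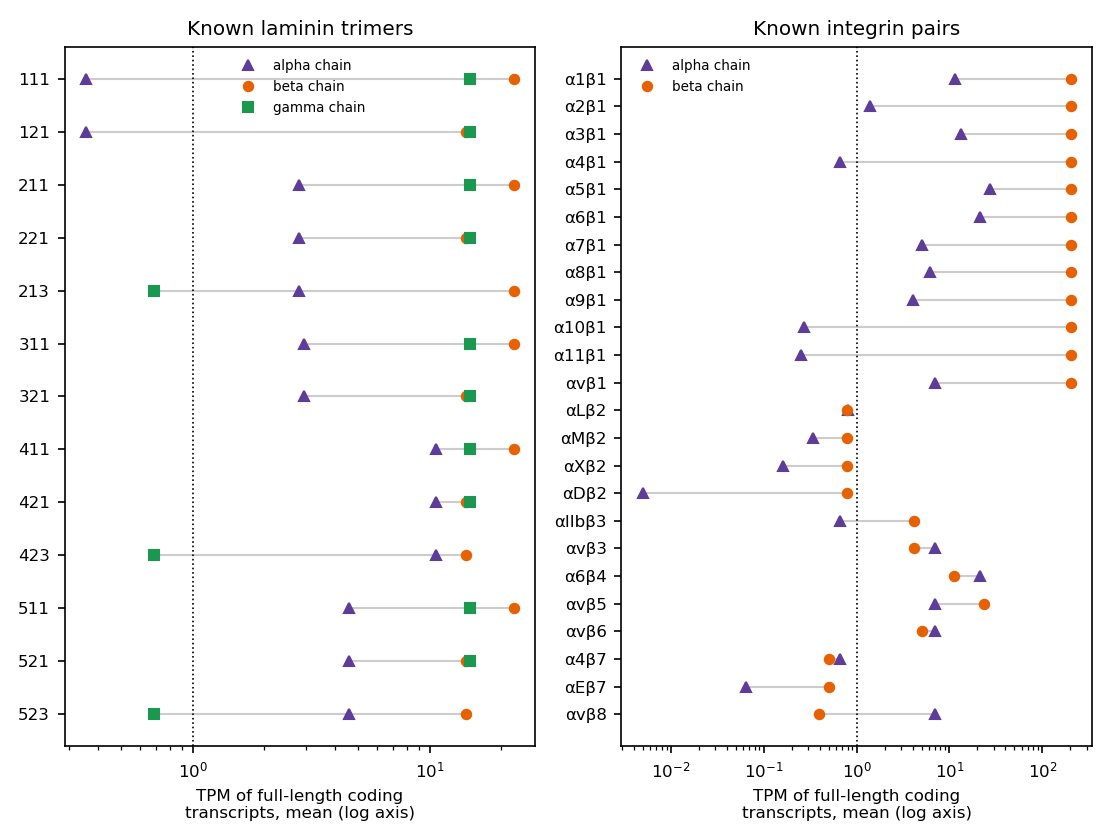
TPM of full-length coding transcripts (x axis, logarithmic, mean of the pups) for each chain of known laminin trimers (left) and integrin pairs (right), with 1 line per complex (y axis). Triangles are α chains, circles β chains and squares γ chains, and the dotted line is 1 TPM. The α chain is the lowest member of every trimer drawn except 213, 423 and 523, and Itgb1 is far to the right of each of its α partners.

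Between the pups the members differed little. The ratio was taken as log2 of (TPM + 1) in pup 2 over (TPM + 1) in pup 1, which understates differences of low genes. A gene was called apart at 1.5-fold on that scale, with deposited intervals that did not overlap and a mean of at least 100 expected counts. Of the 31 members with that many counts, 0 were apart, beside 0.796% of the 13951 genes tested. This compares 2 libraries of 1 group and has no replicate check. Over the 27 members whose mean TPM was 1 or more, the median log2 ratio was 0.03, equal to the 0.03 over all such protein-coding genes. Of these, 17 were higher and 10 lower in pup 2, where 58.4% of all such genes were higher, and the median size of the log2 ratio was 0.09, also 0.09 over all.

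At a fold of 5/4, 3 members were apart, all lower in pup 2: Itga1, Itga2 and Itga5. The background at that fold was 4.58% in either direction and 1.95% lower in pup 2. Per library total, the expected counts of Itga2 in pup 2 were 0.557 of those in pup 1 (95% exact interval 0.459 to 0.675, counting error only), from 307 and 166 counts. Those of Itga1 were 0.753 (0.713 to 0.794), and those of Itga5 0.783 (0.751 to 0.815). With a pseudocount of 0.1 in place of 1, Itga2 was also apart at 1.5-fold, beside 1.44% of all genes tested. Itga1 and Itga2 are neighbours on chromosome 13, 21 kb apart. Intervals did not overlap for 6 of the 31 members, a share near the 21.2% of all genes tested. Itga1, Itga2, Itga5 and Itgb1 were the ones lower in pup 2, and Itgb4 and Itgb5 the ones higher. For the counts per library total, the 95% exact intervals, of counting error only, also excluded a ratio of 1 for laminin genes. These were Lamc1 (0.833 to 0.898), Lama4 (0.855 to 0.950), Lamb1 (0.907 to 0.975), Lamb2 (1.08 to 1.19), Lama5 (1.05 to 1.18) and Lamb3 (1.004 to 1.088). No share over all genes is given for this measure, so it has no background here. By gene TPM, Lamc1 (35.70 and 35.88), Lama4 (23.71 and 24.77) and Lamb1 (32.74 and 33.39) were instead higher in pup 2. Lamb2, Lama5 and Lamb3 were higher in pup 2 on both measures.

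The labelled tissue was checked against marker genes, given here by how many were detected and by the mean TPM of the highest. The columnar gastric epithelium had 6 of 6, led by Tff1 (12948), Gkn1 (2846) and Krt8 (1804), and the squamous basal epithelium 4 of 4, led by Krt15 (721.0), Krt5 (456) and Krt14 (246). Smooth muscle had 8 of 8, led by Acta2 (3139), Actg2 (2872) and Tagln (695), and fibroblasts 6 of 6, led by Col3a1 (1086), Dcn (478) and Mfap5 (209). The endothelium had 7 of 7, led by Plvap (49.6), Egfl7 (45.0) and Cldn5 (18.6), and enteric glia 4 of 5, led by Erbb3 (16.1), with Sox10 at a lower level (3.22). Skeletal muscle, which can adhere to the stomach, had 4 of 6, led by Ckm (30.1), Acta1 (21.5) and Tnni2 (15.4). These are the cell types in which laminins and integrins are known to be made, and whole-stomach RNA does not divide the members among them.

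Among the marker lists, 0 of 8 smooth muscle markers were apart between the pups by the 1.5-fold rule, but 7 of the 8 had the lower value in pup 2. Their median log2 ratio was -0.32, beside 0.03 over all protein-coding genes compared, and their summed TPM was 8537 in pup 1 and 6890 in pup 2. All 4 markers of squamous basal epithelium (Krt5, Krt14, Krt15 and Trp63) had the higher value in pup 2, with 0 apart, a median of 0.16 and sums of 1345 and 1540. So did 5 of 5 skeletal muscle markers with a mean TPM of 1 or more, with 0 apart and a median of 0.23. The 6 genes of that list summed to 74.5 and 82.4 TPM. The part of any of these in the differences of Itga1, Itga2, Itga5, Itgb1 and Itgb4 was not tested. For 7 lymphocyte markers the sum was 4.25 and 4.01 TPM, of which Trac alone had 3.70 and 2.97, and Cd3e, Cd3d and Ms4a1 were at or below 0.13. Next were Cd79a (0.21 and 0.37) and Cd3g (0.13 and 0.32). All 6 macrophage markers were detected, led by C1qb at 69.22 and 68.32 TPM, C1qa at 42.68 and 45.52 and C1qc at 41.73 and 42.44. Of 6 neutrophil markers 4 were detected, led by S100a9 (56.16 and 48.59), S100a8 (20.47 and 16.23) and Ngp (2.26 and 2.18). Among platelet markers Pf4 had 170.95 and 125.36 TPM, Ppbp 3.82 and 14.54, Gp9 0.37 and 0.35, and Gp6 was listed at 0 in both pups. Of the 6, 2 were detected. Ppbp was apart by the 1.5-fold rule and higher in pup 2, 1 of 2 tested, beside 0.48% of all genes tested. The part of these cell types in the levels of Itgb2, Itgb7, Itgae and Itga2b was not tested.

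**Figure D5:**
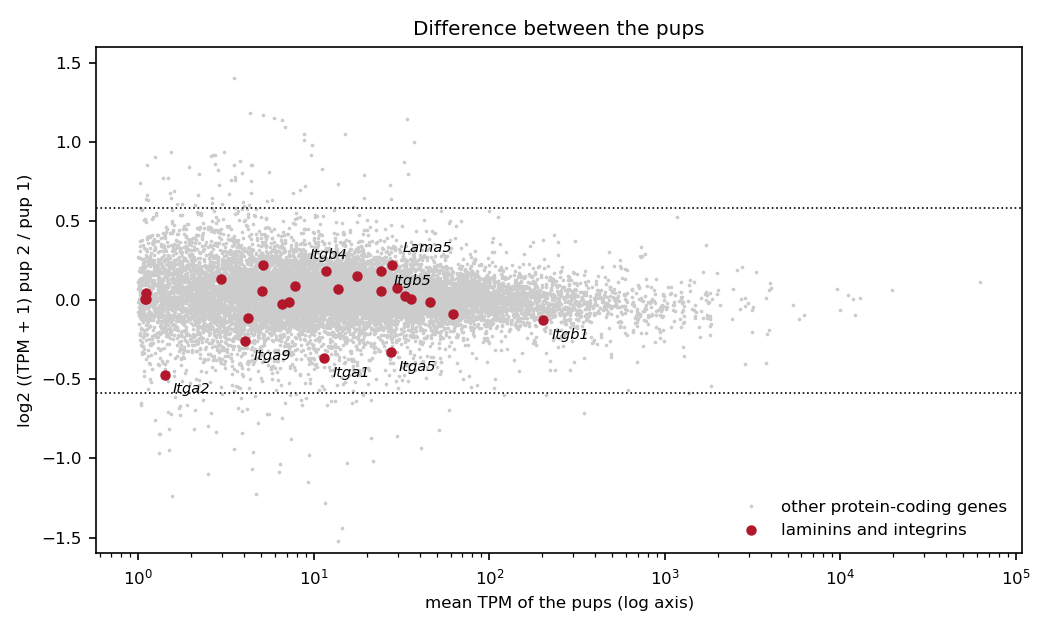
Log2 of (TPM + 1) in pup 2 over pup 1 (y axis) against the mean TPM of the pups (x axis, logarithmic) for protein-coding genes whose mean TPM was 1 or more. Red points are 26 laminin and integrin genes, grey points all others, and the dotted lines mark 1.5-fold. All red points lie between the lines, Itga2 the lowest at -0.47, and 15 genes lie outside the plotted range.

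Most genes that work beside laminins and integrins were detected. Of 16 other basement membrane components 14 were detected, all but Col4a3 and Col4a4. The highest were Col4a1 (81.56 and 75.65 TPM) and Col4a2 (40.52 and 37.21), which form the common type IV collagen, and Npnt, the nephronectin bound by α8 (40.95 and 55.35). Nid1, the linker between laminin and type IV collagen, had 27.53 and 29.69. None of the 16 was apart between pups at 1.5-fold. Of 11 laminin receptors that are not integrins 10 were detected and 0 were apart. The syndecans Sdc1 (150.32 and 165.77) and Sdc4 (114.05 and 123.16) and the laminin α5 receptor Bcam (75.12 and 88.67) were the highest.

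The other hemidesmosome genes were all detected, 4 of 4, with 0 apart. Plec, which ties β4 to keratin, had 37.38 and 26.02 TPM, Cd151 had 17.27 and 20.71, and Col17a1 had 11.84 and 17.03. Of 22 integrin activators and adaptors 21 were detected and 0 were apart. Ilk, which binds the tail of β1, had 266.49 and 242.50 TPM, Actn4 186.30 and 195.16, and the kindlin Fermt2, an activator of β1 integrins, 120.62 and 109.89. Of 18 integrin ligands outside the laminins 17 were detected, led by Col1a1 (746.29 and 699.97), Col1a2 (432.39 and 418.67) and the osteopontin gene Spp1 (199.77 and 169.70). The 3 fibrinogen genes were the only listed ligands apart at 1.5-fold, all higher in pup 2: Fga at 3.32 and 8.59, Fgb at 2.38 and 5.21 and Fgg at 3.97 and 9.62. Fibrinogen is made mainly in the liver and is bound by αIIbβ3 and αMβ2. Of all genes tested, 0.48% were apart and higher in pup 2.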

How the data were processed

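Total RNA of 2 whole stomachs was sequenced, and the values used are those in the gene and transcript tables of each library. The text deposited with each sample names build mm10 and the GENCODE M4 annotation; the aligner, the quantifier and strandedness were not given in the sources used here. Expected counts, as the authors deposited them, are reads estimated per feature with no scaling. TPM, also as deposited by the authors, sums to 1 fixed total in each library. The interval bounds, deposited by the authors beside each TPM, were treated as a score with no level, since the headers name none. They centre on a posterior mean, so the TPM lay outside its own interval for 4 members in pup 1 and 2 in pup 2. The deposited isoform share is a percent of gene TPM.

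Each table held 69691 features. Symbols, gene types and transcript structures came from GENCODE M21, matched on IDs without version: 42462 of 43346 Ensembl genes matched and 884 did not, and 179 of the members' 181 transcripts matched. Of the members, 12 share exon bases with another gene in that annotation (Lama2, Lama3, Lamc3, Itga1, Itga4, Itga7, Itga8, Itga10, Itgad, Itgam, Itgav and Itgb4). Without a known strand, reads of genes that overlap on opposite strands cannot be told apart. For Itga1, Itga10, Itgam and Itgad an overlapping gene with no deposited counts lies on the same strand, and a known strand would not divide those reads. Levels, shares and ratios were computed with Python 3.11.15, pandas 2.3.3, numpy 2.4.6 and scipy 1.17.1. Only the rule that calls a gene apart was tried on simulated counts. Those held counting error only, larger changes than 1.5-fold and a smaller pseudocount, so the levels, shares and ratios were not checked by them. No p was computed, since the 2 libraries form 1 group, and the spread between these pups is the only error. Alternative scalings used edgeR 4.0.16 (TMM) and DESeq2 1.42.0 size factors in R 4.3.3, on counts rounded to whole numbers, with factors from the 17904 genes left by filterByExpr. Every member is named except 1 laminin gene, which is not reported here and is left out of the plots; of the pathway and marker lists, the 3 highest genes and any with a 2-fold or larger difference in TPM and 100 or more counts on average. Other genes named, and the ligand classes of the α chains, were chosen after their values were seen. The members and lists were chosen with earlier results of these data known.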

Additional observations from a re-analysis of the deposited data

How the results depend on the processing

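The precision rests on 2 littermates and on how reads were divided among transcripts, and low members such as Itgad and Itgax rest on few reads. No paired analysis was possible because the 2 libraries form 1 group. With 1 pup left out the genes, pairs and trimers detected stayed at 27, 16 and 9. The highest gene's share was 42.7% to 45.4% for laminin α, 40.4% to 41.8% for β, 68.7% to 69.3% for γ, 33.1% to 33.4% for integrin α and 78.7% to 81.6% for integrin β, and the median main transcript share was 76.0% to 79.0%. Results between the pups cannot be computed from 1 pup. At a TPM of at least 5 the detected pairs came to 9, and at 0.1 the detected trimers came to 14. Itga2 was the only member apart between pups with a pseudocount of 0.1, with TMM-scaled CPM and with counts divided by DESeq2 size factors. Of all genes tested, 1.44% were apart with that pseudocount. No such share is given for the TMM and DESeq2 scalings, so the call there has no background. At a fold of 5/4, 3 members were apart, beside 4.58% of all genes tested. The median log2 ratio of the members was 0.03, but -0.02 with TMM and -0.03 with DESeq2 size factors, within the SD of 0.18 over members. With posterior mean TPM the highest share came to 40.2% for laminin β and 32.7% for integrin α, and the main transcript share to 72.8%.

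Readings added after the data were seen moved the shares of 4 families. On full-length coding transcripts the highest gene held 49.8% of laminin α (Lama4), 44.6% of β (Lamb3) and 27.2% of integrin α (Itga5). With all reads on the main full-length transcript it held 48.8% (Lama4), 42.5% (Lamb3), 53.7% (Lamc1) and 29.3% (Itga6). By gene TPM these shares were 44.0% (Lama5), 41.1% (Lamb1), 69.0% (Lamc1) and 33.3% (Itgav). Which reading is nearer to the RNA in the tissue was not tested. Under the alternatives, 51 values stayed near the ones reported and 16 moved, where near means counts within 1.5 times and values within the SD. For shares with a pup left out, staying within the SD holds by construction with 2 pups and says nothing of stability. The band for counts is wide: detected genes came to 18 at a TPM of at least 5 and to 36 at 0.1, and both count as near 27. With the lower interval bound at 1 or more in both pups, 23 genes and 13 pairs were detected. With posterior mean TPM, Itgam was detected too, which gave 28 genes and 17 pairs.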
